A study of Mus musculus with 4 samples.

Results

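The regions described here are stretches of open chromatin, away from the ends of genes, that were called as peaks in both libraries of B16F10 cells carrying a guide against Arid1a and in neither library of cells carrying a scrambled guide. Peaks of the 4 lists were merged where they overlapped, and a region was kept when it lay more than 1 kb from every end of a protein-coding gene. This gave 713 regions of the 103629 merged regions, or 0.809% of the 88147 distal ones. Without the distance limit the same pattern was found at 771 regions, 0.744% of all merged regions. The regions were chosen by the measured presence and absence of peaks in these 4 lists, so their absence from the sgScramble lists is not a result, and no test was made of it.

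The assay was ATAC-seq, which uses the transposase Tn5 to cut and tag open DNA, with 50000 input cells. B16F10 is a melanoma line from mouse, and the cells were kept in vitro. The groups were sgScramble (n = 2) and sgArid1a (n = 2), named from the sample titles, and the labels give no further genotype, time or treatment and do not say whether the cells were a pool or a clone. The replicates are not said to be separate cultures, and their spread may therefore be technical. Peaks lay within 2 kb of the gene ends of 26 of 30 melanocyte lineage genes in all 4 lists, among them Tyr, Pmel, Mlana and Sox10. Tfap2a had them in 2 lists, and Tfap2b, Ednrb and Edn3 in none. Outside that list, Ptprc and Epcam had them in none and Pecam1 in 3. The share over all genes was not counted, so these peaks do not identify the cell type.

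Arid1a encodes a DNA-binding subunit of BAF (SWI/SNF), a complex that uses ATP to slide or evict nucleosomes. BAF is known for keeping enhancers accessible, and enhancers are distal elements where transcription factors bind and act on promoters over a distance. A cell that lacks ARID1A can still assemble BAF with the paralog ARID1B, and the related PBAF complex carries ARID2 in its place. Distal ATAC peaks include enhancers, insulators and the starts of non-coding or internal transcripts, and a peak alone does not tell them apart.

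Some of the regions lay over or beside annotated starts of transcripts. Sequences are shown for some of them because a start is annotated there, and the activity of these starts was not measured. RefSeq start windows (GRCm38.p6, the build of the mm10 coordinates), which run from 250 bases before to 50 after a start, were overlapped by 10 regions (1.40% of 713; 95% Clopper-Pearson interval 0.675% to 2.56%). Of the distal regions with a peak in all 4 lists, 1952 of 40218 (4.85%; 4.65% to 5.07%) overlapped one, and of those called in both sgScramble lists and no sgArid1a list (8965, or 10.2% of distal regions), 107 (1.19%; 0.979% to 1.44%) did. Median merged width was 531 bp for members, 1046 bp for regions in all 4 lists and 581 bp for those only in sgScramble. The part of width in these shares was not tested. The region covered the start itself in 8 of the 10. In 3 of them the start belonged to a protein-coding gene and lay more than 1 kb from that gene's outer ends. These genes were Rassf5, a Ras-association adaptor, Iftap, a protein of intraflagellar transport, and Tspan14, a tetraspanin. The other 7 lay at starts of long non-coding RNA genes, 5 of them over a start itself and 2 over bases of the window beside it. The sequences below are the bases before the start that lay under the region, written 5′ to 3′ in the direction of transcription, for the 4 starts with the longest such stretch. Capitals mark matches, on either strand, to the letters searched.
Rassf5, chr1:131200186-131200435, minus strand: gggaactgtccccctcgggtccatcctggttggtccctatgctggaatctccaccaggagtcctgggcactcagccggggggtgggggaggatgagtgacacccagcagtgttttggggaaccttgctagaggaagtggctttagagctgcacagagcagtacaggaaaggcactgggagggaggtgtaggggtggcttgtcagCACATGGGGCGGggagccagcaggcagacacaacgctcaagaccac
Iftap, chr2:101621047-101621293, minus strand: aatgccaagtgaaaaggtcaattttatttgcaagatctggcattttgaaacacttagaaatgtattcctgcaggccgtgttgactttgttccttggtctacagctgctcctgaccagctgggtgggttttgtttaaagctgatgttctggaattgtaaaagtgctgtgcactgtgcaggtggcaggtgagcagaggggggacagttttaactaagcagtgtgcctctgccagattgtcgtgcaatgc
Gm39888, chr2:101991680-101991929, plus strand: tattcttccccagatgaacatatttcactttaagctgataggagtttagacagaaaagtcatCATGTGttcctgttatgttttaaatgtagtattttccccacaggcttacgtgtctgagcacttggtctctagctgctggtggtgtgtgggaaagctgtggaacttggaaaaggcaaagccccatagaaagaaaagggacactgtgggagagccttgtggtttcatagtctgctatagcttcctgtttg
Gm52180, chr15:82275445-82275694, minus strand: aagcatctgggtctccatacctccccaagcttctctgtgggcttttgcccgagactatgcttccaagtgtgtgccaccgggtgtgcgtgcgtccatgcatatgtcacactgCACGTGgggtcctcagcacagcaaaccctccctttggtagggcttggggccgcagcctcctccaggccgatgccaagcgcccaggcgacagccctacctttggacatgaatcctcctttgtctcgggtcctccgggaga
The capitals in Rassf5 are CATGTG, the core of the melanocyte M-box, read on the other strand, and next to it GGGCGG, the GC box. Gm39888 holds CATGTG and Gm52180 holds CACGTG, the E-box bound by MITF and its relatives. Among the 250 bases before all 32851 RefSeq starts, CATGTG was found in 12.3%, CACGTG in 6.02% and GGGCGG in 32.7%. Of the 11 windows touched by the 10 regions, 4 held CATGTG, 1 CACGTG, 1 GGGCGG and 1 GGAATG (the TEAD motif, 12.6% of all starts). These counts cover all 250 bases before each start, whether or not the region lay over them. At Gm46652 the region lay over just the 37 bases before the start. The CATGTG and the GGAATG of that window were outside the region. Thus none of the searched bases that lay under a region held the TEAD motif. The rest of each region was not searched. At Gm35189 no base before the start lay under the region. The AP-1 motif TGANTCA (6.75% of all starts), the interferon-stimulated response element (2.98%) and TATAAA (12.4%) were in none of the 11, which says only that these letters are not in those bases. No motif overlapped another in the sequences printed. The 11 windows, again over all 250 bases, had a median of 47.6% G and C and 2 CpG, against 52.4% and 6 over all starts.

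Of the 10 regions at starts, 5 had a mean fold percentile (over both sgArid1a lists) above the median of all members, 20.6, and 5 below it. Those at the 3 protein-coding genes were among the lower ones. The Rassf5 region (chromosome 1, 131200147 to 131201570) had an authors' fold, the ratio of signal over background given for each peak, of 2.76 in sgArid1a replicate 1 and 2.72 in replicate 2. Iftap (chromosome 2, 101620723 to 101621293) had 2.78 and 2.81, and the internal Tspan14 start (chromosome 14, 40947632 to 40948344) had 2.79 and 2.64. Each of these lay in the lowest 20% of its list. Higher values stood at the edge of the start window of the long non-coding RNA gene Gm35189 (chromosome 12, 77052700 to 77053220), with a fold of 4.27 and 4.65, and that region stopped short of the start itself. It and the region at Gm32143 (chromosome 19, 36538502 to 36538986; fold 3.17 and 2.93) were the 2 of the 10 with a −log10 q of at least 5 in both libraries. The regions at Gm41300 (mean fold percentile 38.5), Gm46652 (29.2) and Gm39888 (24.5) were the others above the median.

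A single region lay within 2 kb of microRNA genes. It was at 137964865 to 137965304 on chromosome 1, 1151 bp before the hairpin of Mir181a-1 and 1335 bp before that of Mir181b-1, which are transcribed together on the plus strand. The mature 5p products are shown because they share a seed (bases 2 to 8, in capitals), the part of a microRNA that pairs with its targets.
mmu-miR-181a-5p: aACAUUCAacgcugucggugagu
mmu-miR-181b-5p: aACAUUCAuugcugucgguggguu
The region was near the limit of calling, with a fold of 2.72 and 2.75 and a −log10 q of 1.11 and 1.39 in sgArid1a replicates 1 and 2. The nearest sgScramble peak was 6223 bp away.

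Most of the 713 regions ranked low within the sgArid1a lists. The median fold was 2.98 in sgArid1a replicate 1 (lowest 1.61, highest 6.17) and 2.89 in replicate 2 (1.66 to 5.48). The median percentile of the fold within the list was 19.9 and 20.5, against 53.7 and 57.6 for distal regions with a peak in all 4 lists. Both libraries thus placed a typical member low in its list. The mean percentile over both lists was below 25 for 449 regions (63.0%) and above 50 for 46 (6.45%). The −log10 q had a median of 1.76 and 1.95, where every list ends just above 1. In 327 regions (45.9%) at least 1 of the 2 peaks was below 1.5, in 210 (29.5%) both were at least 2, and in 22 (3.09%) both were at least 5. Regions called in both sgArid1a lists and in just 1 sgScramble list (1670) stood between, with median percentiles of 27.9 and 30.5.

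**Figure D1:**
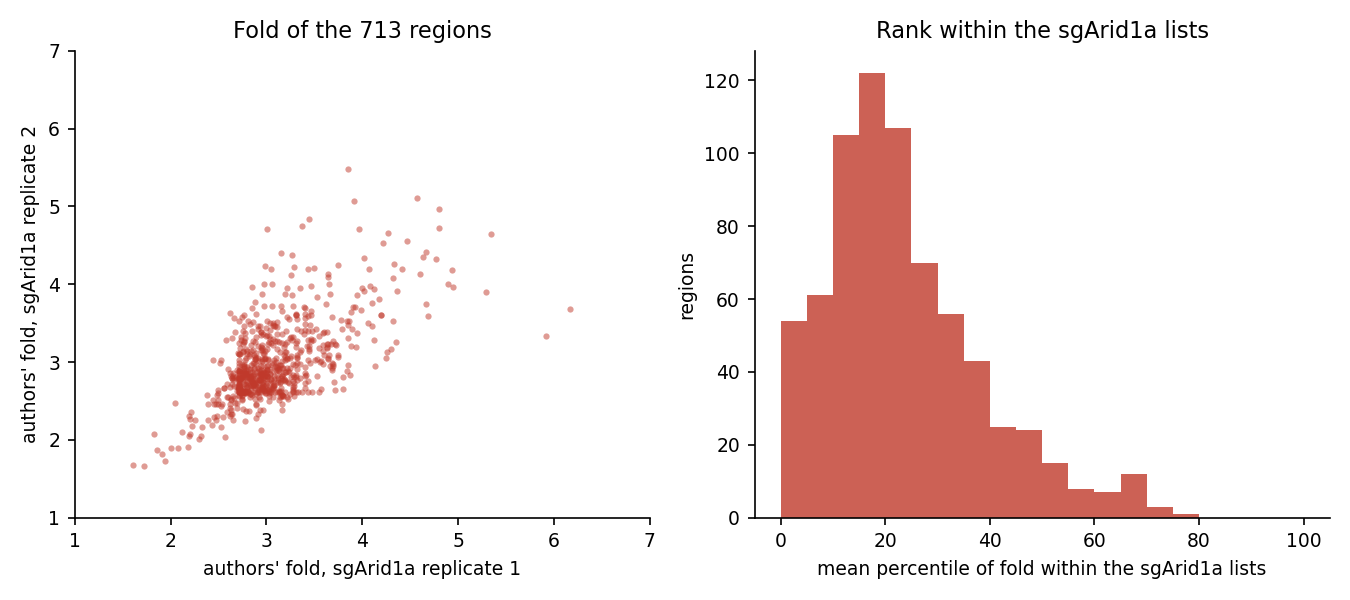
Left, the authors' fold of each of the 713 regions in sgArid1a replicate 1 (x axis) and replicate 2 (y axis), 1 point per region; right, the number of regions (y axis) by the mean percentile of the fold within both sgArid1a lists (x axis). Most points sit between a fold of 2 and 4, and 46 regions lie above the 50th percentile.

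The fold of a region was similar in the sgArid1a replicates, while its width was not. Across the 713 regions the folds of the replicates had a Pearson r of 0.67 on the log2 scale and a Spearman rho of 0.57, and the widths 0.19 and 0.18. Over the 40218 distal regions of all 4 lists these were 0.84 and 0.83 for fold and 0.69 and 0.68 for width. All such regions share the same 2 libraries, so the values are descriptions. Merged width had a median of 531 bp (251 to 2254 bp), against 1046 bp for distal regions of all 4 lists. The shorter of the 2 sgArid1a peaks shared a median of 94.6% of its length with the other, at least 50% in 603 regions and under 10% in 15.

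Of the 10 strongest regions by mean fold percentile, 4 lay inside genes and 6 between them. The first was at 114614233 to 114614617 on chromosome 6, 28510 bp from an end of Atg7, which encodes the E1-like enzyme of autophagy, with a fold of 5.34 in sgArid1a replicate 1 and 4.64 in replicate 2. The next was 125709 bp from Trim24, a chromatin reader and nuclear receptor cofactor (chromosome 6, 37744811 to 37745102; 4.80 and 4.97). The rank chose these regions, so their folds are given as a description. A region near Helt, a transcription factor gene of the Hes family (chromosome 8, 46281514 to 46281960), had 4.80 and 4.72 and lay over an end of a long non-coding RNA gene. The replicates differed more at Selenoi, a phospholipid synthesis enzyme, where the region inside the gene (chromosome 5, 30247638 to 30248029) had the highest single fold of the set, 6.17, in replicate 1 and 3.68 in replicate 2.

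Inside Hsd17b12, a reductase of fatty acid elongation, the region at 94054893 to 94055320 on chromosome 2 had a fold of 4.67 and 4.41 and a −log10 q of 8.93 and 12.1. Others of the 10 lay inside Serpinb6a with the nearest end that of Nqo2, a quinone reductase (chromosome 13, 33942214 to 33942655; 4.77 and 4.33), and inside Rabgap1l with the nearest end that of Gpr52, an orphan receptor (chromosome 1, 160561361 to 160561842; 4.93 and 4.18). The last ones were near F830045P16Rik (chromosome 2, 129438915 to 129439194; 4.57 and 5.11), near Cpz, a carboxypeptidase (chromosome 5, 35475170 to 35475504; 3.85 and 5.48), and near Cc2d2b (chromosome 19, 40746529 to 40746845; 4.47 and 4.55). None of these 10 had an sgScramble peak within 2 kb. The nearest was 2291 bp away, at the Trim24 region, and the farthest 26704 bp, at Rabgap1l. By q the order differed, and 1 region, inside Sult2b1, a sulfotransferase of cholesterol and other sterols, had a −log10 q above 10 in both libraries (10.7 and 12.1; chromosome 7, 45744376 to 45744691). It was chosen after its values were seen.

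The widest regions were not strong ones. At Ppfia3, a liprin (chromosome 7, 45351247 to 45353500), the region of 2254 bp held a 488 bp peak in sgArid1a replicate 1 and a 2254 bp peak in replicate 2, with a fold of 2.77 and 2.93. Regions of 1766 to 1998 bp lay inside Poln, a DNA polymerase (chromosome 5, 34031466 to 34033463), inside Chd6, a chromatin remodeller (chromosome 2, 161064956 to 161066831), inside Add2, an adducin of the membrane skeleton (chromosome 6, 86098090 to 86099939), and near Aff3, a transcriptional elongation factor (chromosome 1, 38171005 to 38172770). All 5 had a mean fold percentile under 25. The widths of peaks given here are those of the peak with the highest fold in each library. In 4 of the regions the wide peak was in 1 library and that of the other library was at most 642 bp. At Poln the 334 bp peak lay within the 1708 bp one, so the region of 1998 bp held a further peak. At Aff3 the peaks were 827 and 954 bp and shared just 1.81% of the shorter.

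Some members lay close to a limit of the rule. Just beyond 1 kb lay regions 1059 bp from Fam160b1, 1076 bp from Ndufb2, a subunit of respiratory complex I, and 1199 bp from Kmt2c, an enhancer histone methyltransferase. Just within it, and so left out, were regions 956 bp from Poc1a, 909 bp from Atf6b and 898 bp from Patl1. The lowest −log10 q values of members were 1.02 at Uba3, 1.05 at Smc4, a condensin subunit, and 1.07 near Epop, each in sgArid1a replicate 1. Regions that missed the set by a single weak sgScramble peak lay near Ucp2 (−log10 q of that peak 1.07), Ripor3 (1.11) and Nfatc2 (1.12). Of the 1670 regions left out by 1 sgScramble list, that peak was below 1.5 in 70 (4.19%), and its median was 3.23.

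Few of the distal peaks seen in 1 sgArid1a library and absent from sgScramble were found in the other sgArid1a library. Of 4519 such regions in replicate 1, 713 (15.8%; 95% Clopper-Pearson interval 14.7% to 16.9%) had a peak in replicate 2. In the other direction it was 713 of 5284 (13.5%; 12.6% to 14.4%). For the reverse pattern, sgScramble peaks absent from sgArid1a, 8965 of 14598 (61.4%) and 8965 of 16803 (53.4%) were shared by the replicates. As called, the sgScramble lists were also the longer ones, with 82319 and 85613 peaks against 65353 and 71255. Distal regions called in exactly 1 library of each group and in no other numbered 747, 1002, 1213 and 1649, all above 713. These counts describe the lists and carry no test.

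The number of regions depended on how the lists were set. It was 210 where both sgArid1a peaks needed a −log10 q of at least 2, 278 where all 4 lists were cut there, and 2096 with lists of equal length. With equal length, 528 of the 713 (74.1%) were among the 2096. Keeping the stronger 50% of every list, ranked by fold, gave 784, but just 31 of the 713 were among them. Merging within 1 kb gave 726, with 681 of the 713. With a library left out, fewer lists decide. The count was then 1464 when sgScramble replicate 1 was dropped, 1640 for sgScramble replicate 2, 5300 for sgArid1a replicate 1 and 4579 for sgArid1a replicate 2. A single region of the 713 stayed under every setting tried, at 107727168 to 107728460 on chromosome 8, 138686 bp from an end of Psmd7, a proteasome subunit. Its mean fold percentile was 54.5 and it was 1293 bp wide.

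**Figure D2:**
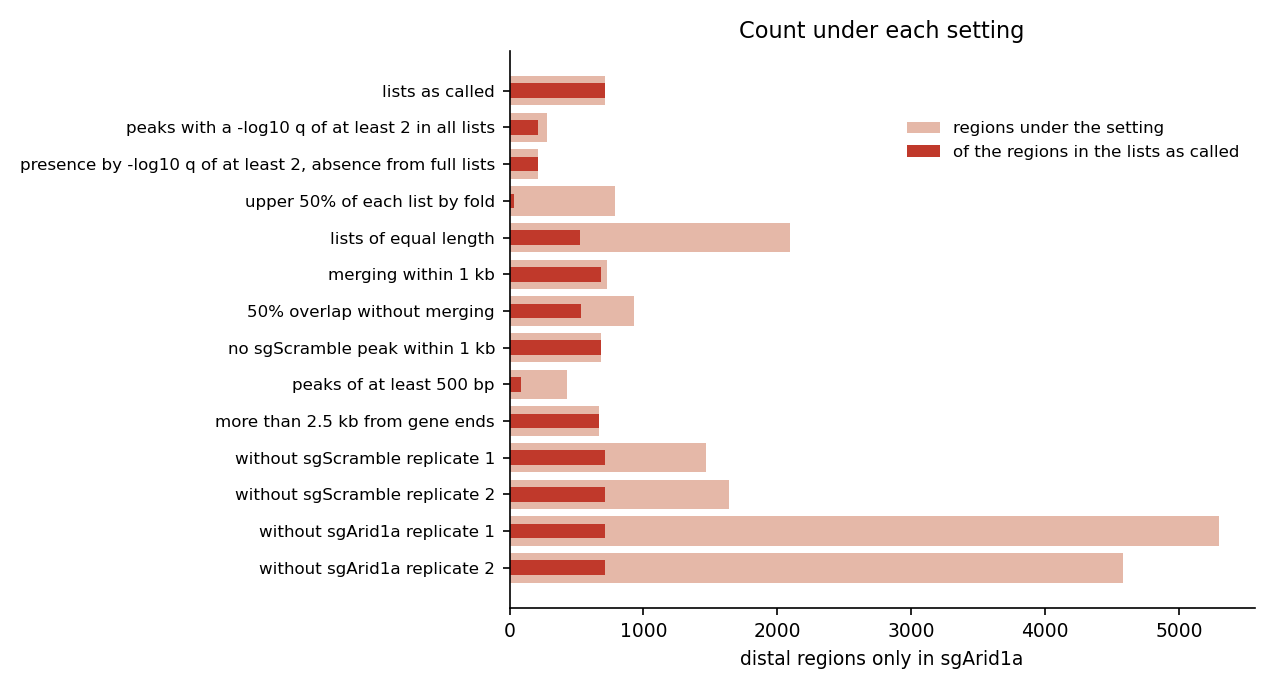
Distal regions only in sgArid1a (x axis) under each setting (y axis): wide pale bars count all regions under the setting, narrow dark bars those of the 713 regions of the lists as called. The upper 50% by fold keeps 31 of them, and leaving out an sgArid1a library gives 5300 or 4579 regions.

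The positions of the regions are given beside those of other distal regions as shares, with no test. Inside a protein-coding gene lay 409 (57.4%; 53.6% to 61.0%), against 56.1% of all distal regions, 54.8% of those in all 4 lists and 56.3% of those only in sgScramble. Median distance to a gene end was 19379 bp, against 20546 bp for regions in all 4 lists and 27194 bp for those only in sgScramble. Within 50 kb of a gene end were 544 (76.3%), and over 100 kb away 83 (11.6%; 9.38% to 14.2%), against 13.5% of regions in all 4 lists and 19.6% of those only in sgScramble. An end of a long non-coding RNA gene was within 1 kb of 28 (3.93%; 2.63% to 5.63%), against 6.45% and 3.59%. Regions are not replicates, and intervals cover counting error over regions only.

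The regions farthest from the ends of protein-coding genes included 2 inside Lsamp, a very long gene for a neuronal adhesion protein. These lay at 40738964 to 40739411 (fold 3.06 and 3.30) and 40764745 to 40765305 (2.72 and 2.68) on chromosome 16, with the nearest sgScramble peaks 91920 and 117701 bp away. The farthest of all was 1664052 bp from Tmeff2 (chromosome 1, 49236199 to 49236631; 3.02 and 3.03), and its nearest sgScramble peak was 251813 bp away. Others stood 1269784 bp from Stim2, a calcium sensor (chromosome 5, 55390841 to 55391164), and 880436 bp from Rps29, a ribosomal protein (chromosome 12, 68276670 to 68277286). All 5 had a mean fold percentile below 30.

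Control peaks lay close to many of the regions without touching them. An sgScramble peak was within 1 kb of 30 regions (4.21%; 2.86% to 5.95%) and within 5 kb of 325 (45.6%; 41.9% to 49.3%). Regions only in sgScramble had an sgArid1a peak within 5 kb in 39.3% (38.3% to 40.4%). The sgScramble lists were the longer ones, so these shares, and the gaps that follow, were taken against lists of unlike length. With lists of equal length, 35.2% of the regions of that setting had an sgScramble peak within 5 kb. The median gap was 5540 bp for members and 6516 bp for regions only in sgScramble. At 2 of the genes described below the gap was far smaller, 3 bp at Met and 393 bp at Dusp16.

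Peaks around the regions covered less in sgArid1a than in sgScramble, as peaks did over the whole genome. Within 5 kb of their edges, the region left out, peaks covered a mean of 196 and 245 bp per region in sgArid1a replicates 1 and 2, and 338 and 359 bp in sgScramble replicates 1 and 2. Each sgArid1a value was thus under each sgScramble value. The group means were 220 ± 34.7 bp and 348 ± 14.7 bp (SD, n = 2 each), a difference of -128 bp (exact permutation test of the difference of means, two-sided, p = 0.333, the smallest that 2 libraries against 2 can give). The rule fixes an sgArid1a peak and no sgScramble peak at the centre, and that peak is left out of the cover. The groups thus enter the flanks unequally, and sgArid1a cover was lower over all peaks too. The test therefore cannot tell whether these regions differ from others, and no conclusion is drawn from it. The sgArid1a mean was 63.2% of the sgScramble mean. This share was 75.3% around distal regions of all 4 lists, 81.1% around those only in sgScramble and 77.7% over all peaks. With lists of equal length, set because the sgScramble lists are longer, the difference was -38.5 bp, and with the stronger 50% of every list -44.6 bp. With a 50% overlap in place of merging it was -109 bp and the libraries of the groups no longer stood apart (exact p = 1). Within 20 kb the share was 78.4%, 78.8% and 77.7% around those 3 classes. The differences between these shares were not tested.

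In every library and class, cover was lower close to a region than farther away. Around members, 2 to 4.6 kb from the centre, peaks covered 2.43% and 3.05% of bases in sgArid1a and 4.30% and 4.52% in sgScramble. At 6 to 9 kb these were 4.6% and 5.46% in sgArid1a and 6.27% and 6.30% in sgScramble. Around regions in all 4 lists the nearer values were 2.15% and 2.47% in sgArid1a and 3.04% and 3.11% in sgScramble. Around regions only in sgScramble they were 3.0% and 3.61% in sgArid1a and 4.02% and 4.06% in sgScramble. The sgScramble values close to members, 4.30% and 4.52%, were thus nearer to those around regions only in sgScramble than to those around regions in all 4 lists. The sgArid1a values close to members, 2.43% and 3.05%, lay in each library between those around the other classes. The cause of the lower cover close to regions was not tested.

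**Figure D3:**
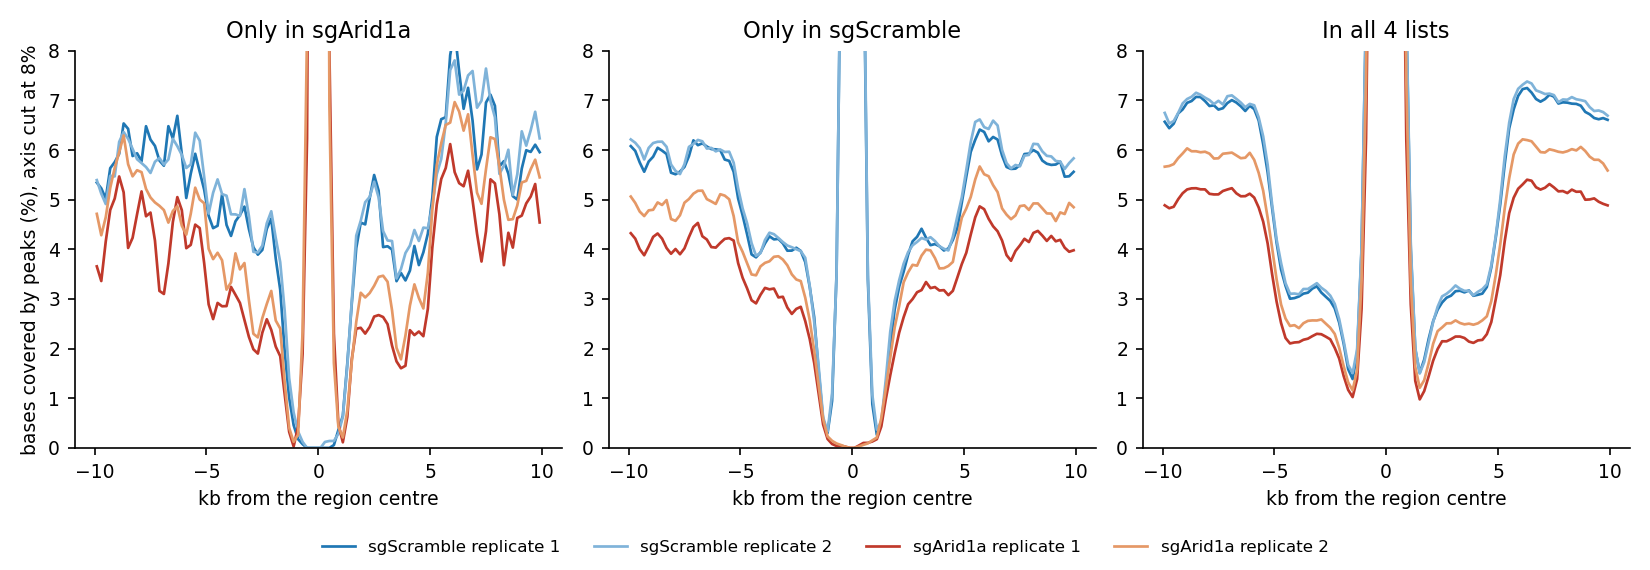
Share of bases covered by peaks (y axis, cut at 8%) by distance from the region centre (x axis, kb) in fixed steps, 1 line per library, for the 713 regions only in sgArid1a, the 8965 distal regions only in sgScramble and the 40218 distal regions in all 4 lists. At the centre the rule sets presence and absence, and from 2 to 4.6 kb beside the regions only in sgArid1a the sgArid1a libraries average 2.43% and 3.05% and the sgScramble libraries 4.30% and 4.52%.

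Chromosome 6 held the most members, 85, or 2.59% of its 3279 distal regions with a peak in both sgArid1a lists (2.08% to 3.20%), against 1.67% over all chromosomes. Chromosome 1 had 67 (2.20%; 1.71% to 2.79%) and chromosome 10 the lowest share with any member, 23 of 2037 (1.13%; 0.717% to 1.69%). No member lay on the Y chromosome (0 of 6, which allows a share of up to 50%). The members of chromosomes 6 and 1 were weak ones, with a median mean fold percentile of 17.3 and 17.8, against 20.6 over all members. Where both peaks needed a −log10 q of at least 2, chromosome 6 had 17 (0.518%, against 0.493% over all), and with lists of equal length 175 of 3147 (5.56%, against 5.07%). Its share was again the highest when sgArid1a replicate 1 was dropped (12.2%, against 9.28% over all), when sgArid1a replicate 2 was dropped (13.9%, against 8.91%) and where no sgScramble peak was allowed within 1 kb (2.38%, against 1.60%). It was not the highest when sgScramble replicate 1 (4.39%, against 3.43%) or replicate 2 (4.75%, against 3.84%) was dropped, where the X chromosome was (4.98% and 6.24%). The X chromosome was also the highest with merging within 1 kb and with a 2.5 kb distance. With peaks of at least 500 bp chromosome 6 had 1.74%, against 1.68% over all. Its share was below that over all with the upper 50% by fold (3.86%, against 4.01%) and with all lists cut at a −log10 q of 2 (0.742%, against 0.780%). The share only in sgScramble on chromosome 6 was 15.4% of the 4621 distal regions in both sgScramble lists, against 15.1% of 59305 over all chromosomes.

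**Figure D4:**
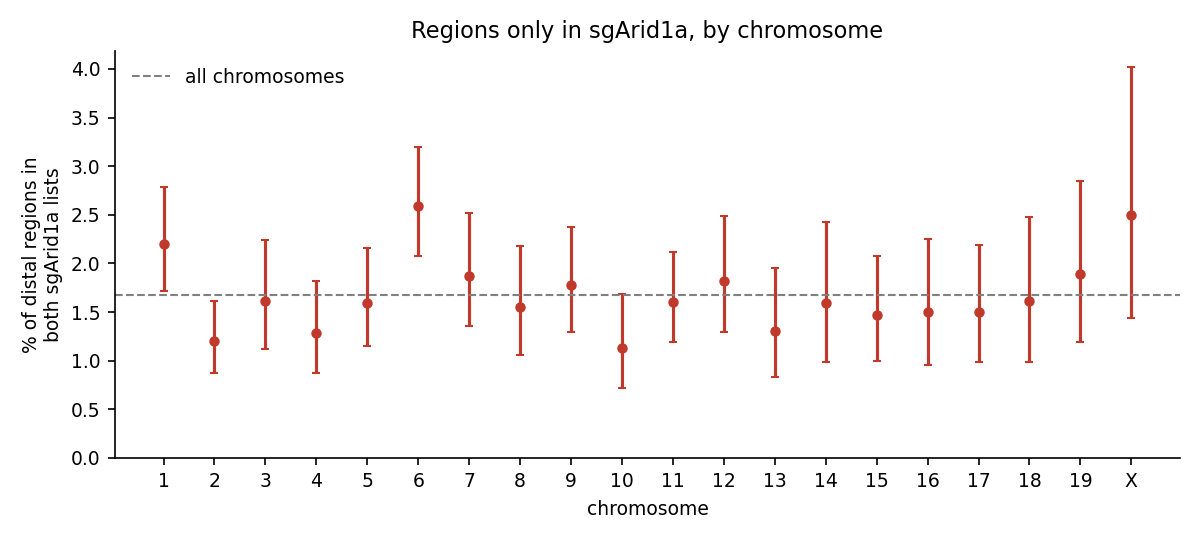
Regions only in sgArid1a as a percentage of the distal regions with a peak in both sgArid1a lists (y axis), by chromosome (x axis, Y left out for its 6 regions); points are shares, bars 95% Clopper-Pearson intervals, and the dashed line is the share over all chromosomes, 1.67%. Chromosome 6 stands at 2.59% and chromosome 10 at 1.13%.

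The 544 regions within 50 kb of a gene end were spread over 532 genes, of which 12 had 2. Their nearest genes also lay near regions of the opposite kind: 199 of the 532 (37.4%) had a distal region only in sgScramble, against 30.2% of 14914 genes with any distal region. The 532 genes had a median of 6 distal regions each and all genes 3, and the part of that in the difference was not tested. Members were sparse among each other too, with 1 pair closer than 5 kb and 15 neighbouring pairs closer than 50 kb. The pair lay inside Met, the receptor for hepatocyte growth factor.

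The 12 genes with 2 regions had varied roles. The regions of Cecr2, which encodes a bromodomain subunit of an ISWI remodeller, lay outside the gene at 120639352 to 120639792 (fold 2.93 in sgArid1a replicate 1 and 2.82 in replicate 2) and inside it at 120700118 to 120700482 on chromosome 6 (2.94 and 3.39). Those of Epop, a partner of Polycomb repressive complex 2, lay on either side of the gene on chromosome 11 (97612689 to 97612991 with 2.5 and 2.61, and 97638328 to 97638908 with 2.69 and 2.90). Neither gene had a distal region only in sgScramble, which 30.2% of all genes with a distal region had. At Cux1, a homeobox factor, 1 of the 2 was inside the gene (chromosome 5, 136290061 to 136290784; 3.0 and 2.70) and 1 lay 20779 bp beyond its end. At Phf14, a PHD finger protein that reads histones, both were inside (chromosome 6, 12069565 to 12070034 and 12094638 to 12095469), with folds between 2.81 and 2.97. A further member inside Phf14 (12020807 to 12021430) lay 78726 bp from the nearest end, beyond the 50 kb limit, and was not assigned.

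Inside Dusp16, a phosphatase that acts on JNK and p38, were regions at 134721256 to 134721632 (2.78 and 3.38) and 134730703 to 134731687 (3.16 and 2.96) on chromosome 6. Inside Ogt, the enzyme that attaches O-GlcNAc, were 2 on the X chromosome (101648071 to 101648435 and 101659390 to 101660666, folds 2.61 to 3.09), and none of the 7 distal regions of that gene was called in all 4 lists. Il16, a cytokine, Rasgef1a, an exchange factor for Ras-family proteins, and Tspan14 each had both regions inside the gene, with folds from 2.46 to 2.95. Zfp280d and Zfp830, zinc finger genes, had theirs outside the gene, 4099 to 19820 bp from the nearer end. No region of these 12 genes had a mean fold percentile above 31.

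The Met regions were the weakest of these by rank. They lay at 17540225 to 17540674 (fold 2.19 and 2.31) and 17543511 to 17544199 (2.32 and 2.05) on chromosome 6, at mean fold percentiles of 1.57 and 1.09. Of the 27 distal regions of Met, 10 were in all 4 lists and 3 only in sgScramble. An sgScramble peak lay 3 bp from the first region, and another was 1905 bp from the second.

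Of 13 gene lists, 9 held a gene with a region assigned within 50 kb. The lists were written with earlier results of these data known, so their counts are descriptions and not independent evidence. Over all protein-coding genes, 544 of the 31224 distal regions assigned within 50 kb and called in both sgArid1a lists (1.74%) were members, at 532 of 11979 genes. The share was 7 of 98 (7.14%; 2.92% to 14.2%) for Polycomb and other chromatin remodeller genes, at 5 of 26 genes, and Cecr2 and Epop, with 2 regions each, were known to carry them when that list was written. Its others were Chd2 (chromosome 7, 73546815 to 73547256; fold 2.69 and 2.81) and Chd6, helicases of the CHD family, and Mtf2, a Polycomb complex 2 subunit that reads H3K36 methylation (chromosome 5, 108090936 to 108091541; 2.97 and 4.01). Genes for BAF and PBAF subunits had 2 of 66 (3.03%; 0.369% to 10.5%), at 2 of 20 genes. Of their distal regions in both sgScramble lists, 20 of 94 (21.3%) were only in sgScramble, against 13.9% over all genes. In the other lists this share ran from 11.1% (AP-1 and TEAD factors) to 23.1% (Wnt genes, 33 of 143).

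The strongest region of any list gene lay inside Arid2, the defining subunit of PBAF, at 96373272 to 96373647 on chromosome 15. Its fold was 4.95 in sgArid1a replicate 1 and 3.96 in replicate 2, its −log10 q 7.42 and 5.95, and its mean fold percentile 65.0. The nearest sgScramble peak was 3483 bp away. Arid2 had 12 distal regions, of which 2 were in all 4 lists and 2 only in sgScramble. The other subunit gene was Actl6b, the neuronal actin-like subunit, with a region 1616 bp beyond its end (chromosome 5, 137551024 to 137551745; 3.90 and 3.43). Arid1a had none among its 7 distal regions.

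Melanocyte lineage genes had 7 of 142 (4.93%; 2.0% to 9.89%), at 6 of 27 genes. Outside the gene, 40032 bp from an end of Mitf, the master regulator of the lineage, the region at 97766468 to 97766970 on chromosome 6 had a fold of 2.62 and 2.86. At Zeb2, a repressor of the epithelial state, the region (chromosome 2, 44980369 to 44981076; 2.66 and 2.56) was 755 bp from an sgScramble peak. Gpr143, a melanosome receptor, had one 10502 bp beyond its end (X chromosome, 152819153 to 152819424; 3.01 and 2.96). Inside Dct, a melanin synthesis enzyme, the region at 118038309 to 118039162 on chromosome 14 had the lowest mean fold percentile of those named, 0.0803 (1.72 and 1.66). Inside Rab27a, which carries melanosomes to the cell edge, the region at 73067149 to 73067430 on chromosome 9 combined a low fold, 2.77 and 2.25, with a high −log10 q, 6.74 and 5.25.

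The other lists had between 1 and 3 members each or none, and their shares stood on both sides of the 1.74% over all genes. MAP kinase feedback genes had 3 of 92 (3.26%), among them both regions of Dusp16. DNA damage genes had 2 of 49 (4.08%), inside Wee1, a kinase that holds back mitosis (chromosome 7, 110132205 to 110132656; 3.48 and 3.40), and 14002 bp from the mismatch repair gene Msh6 (chromosome 17, 88004894 to 88005925; 2.86 and 2.99). Wnt genes had 1 of 99 (1.01%), 3054 bp from Lrp5, a Wnt co-receptor (chromosome 19, 3581434 to 3581771; 3.53 and 3.84), and TGF-beta genes 1 of 112 (0.893%), 14812 bp from Bmpr2 (chromosome 1, 59892893 to 59893528; 3.29 and 2.57). R-loop resolution genes had 1 of 38 (2.63%), near the helicase Pif1 (chromosome 9, 65603886 to 65604170; 2.22 and 2.18).

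The type I interferon list had 1 of 40 (2.5%), inside Ifit3, an interferon-induced antiviral gene (chromosome 19, 34585966 to 34586277; 2.90 and 2.29), 1905 bp from an sgScramble peak. No region was assigned to genes of cGAS-STING DNA sensing (0 of 29, which allows a share of up to 10.3%), of AP-1 and TEAD factors (0 of 69, up to 4.35%), of interferon gamma and antigen presentation (0 of 53, up to 5.66%) or of housekeeping (0 of 40, up to 7.50%). These limits, 3 counts of the total, cover counting error only and lie above the 1.74% of all genes.

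The ends of the genes nearest to members were covered less in sgArid1a, as were gene ends in general. Peaks within 2 kb of both ends of the 532 genes covered a mean of 1194 and 1314 bp per gene in sgArid1a replicates 1 and 2, and 1379.7 and 1378.9 bp in sgScramble replicates 1 and 2. The group means were 1254 ± 85.0 bp and 1379 ± 0.560 bp (SD, n = 2 each), a difference of -126 bp (exact permutation test, two-sided, p = 0.333). The sgArid1a mean was 90.9% of the sgScramble mean, and over the 17303 genes with any region assigned it was 90.4%. When just the stronger 50% of every list was kept, the difference at the ends of the genes nearest to the members of that setting was 71.9 bp in the other direction. With lists of equal length it was -28.1 bp, and the libraries of the groups did not stand apart (exact p = 1).

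Peak cover at the ends was also read for the 29 genes that had 2 regions or were list genes with a region. It was higher in both sgArid1a libraries than in both sgScramble libraries at 2, lower at 12 and overlapping at 15. The same count was not made over all genes, where the sgArid1a mean cover was 90.4% of the sgScramble mean, so these counts have no background. At Rab27a the ends were covered over 3005 and 2988 bp in sgArid1a and 2008 and 1766 bp in sgScramble, and at Arid2 over 3919 and 4099 bp against 3575 and 3457 bp. These were the 2 higher ones. Among the 12 lower ones were Zeb2, with 1595 and 1872 bp against 2828 and 3638 bp, Phf14, with 1928 and 1595 bp against 2867 and 2596 bp, and Epop, with 1607 and 1764 bp against 2429 and 2394 bp. These were picked out after their values were seen, and with 2 libraries against 2 no exact p-value below 0.333 can be reached.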

How the data were processed

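For every library the authors deposited 1 list of broad peaks. Each peak has the authors' score, their −log10 p and −log10 q, and a fold, which is a ratio to background, per the file layout. The submitters' processing notes name STAR 2.5.3a, HOMER, GRCm38 and mm10, without roles. Which peak caller ran, and whether Tn5 offsets were applied, was not given in the sources used here. Lists hold no counts, so depth is unknown. Folds were ranked within a list only. Peak names in the sgScramble lists begin with sgNT.

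Overlapping peaks of the autosomes, X and Y were merged with an overlap of at least 1 bp. Genes (21887 protein-coding), starts and microRNAs came from RefSeq tables of GRCm38.p6, and a genome sequence was not used here. Regions were assigned to the nearest gene end within 50 kb. Of 361 list entries, 2 matched no gene and 3 matched by synonym. Cover in each library was compared by exact permutation tests. Members, lists and tests were chosen with earlier results of these data known. Named were the 10 strongest, 5 widest and 5 farthest regions, 3 at each limit, pairs within 5 kb, genes with 2 regions and list genes. Regions over annotated starts or near microRNAs were added later, and 1 list gene is not reported here. The settings tried were a −log10 q of 2, the upper 50% by fold, equal lengths, merging within 1 kb, a 50% overlap, a 1 kb gap to sgScramble peaks, widths of 500 bp, a 2.5 kb distance, other windows, each library left out and a replicate block. The steps were checked on simulated lists. Python 3.11.15, numpy 2.4.6, pandas 2.3.3, SciPy 1.17.1 and matplotlib 3.10.9 were used.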

Additional observations from a re-analysis of the deposited data

How the results depend on the processing

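The number of regions, 713, became 278 with all lists cut at a −log10 q of 2, 210 with that limit on presence only, 2096 with lists of equal length and 432 with peaks of at least 500 bp. It ranged from 1464 to 5300 without 1 of the 4 libraries, and from 668 to 926 under the other 5 settings. The share inside genes, 57.4%, was 52.3% with peaks of at least 500 bp and 56.4% to 60.1% without 1 library. The share with an sgScramble peak within 5 kb, 45.6%, was 53.6% and 56.2% under the q limits in all lists and on presence, 21.7% with the upper 50% by fold, 35.2% with equal lengths, 68.7% with a 50% overlap (which allows a partial sgScramble overlap), 33.6% with peaks of at least 500 bp and 39.3% to 43.0% without 1 library. The difference in cover around the regions kept its sign, at -38.5 bp with equal lengths, -44.6 bp with the upper 50% by fold, -109 bp with a 50% overlap (exact p = 1), -145 to -107 bp without 1 library and -467 bp within 20 kb. Because the rule treats the groups unequally there, no conclusion is drawn from that sign. The difference at gene ends was -159.8 to -64.6 bp without 1 library and -28.1 bp with equal lengths (exact p = 1). It turned to 71.9 bp with the upper 50% by fold, and the cause was not tested. With the replicate number as a block the values were -128 bp and -126 bp (exact sign-flip test over 2 pairs, p = 0.5, the smallest possible). The labels do not say whether replicate numbers pair the libraries. The replicate differences of log2 fold in the groups had a correlation of 0.0050 over 52885 regions in all lists. That value covers only regions called in every list, so it cannot decide whether the libraries were paired. Depth is unknown, and the exact tests of 2 against 2 cannot pass 0.05.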
